A study of Mus musculus with 10 samples.

Results

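The axon guidance ligands and receptors are secreted or membrane-bound cues of the Slit, netrin, semaphorin and ephrin families and the Robo, netrin, neuropilin, plexin and Eph receptors that read them. A list of 47 such genes was read in 10 mouse pancreatic cancer cell lines, and a gene was kept where its normalized count reached 10 or more in 3 or more of the 10 lines. Of the 47, 44 met that rule, out of 49568 genes in the table, of which 20856 were at 0 in every line. The 44 comprised 24 ligands and 20 receptors. The rule used the level of a gene and not the difference between genotypes, but the list was chosen with earlier results of these data known. Shares of the members called are therefore not those of a list chosen blind to these data.

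The lines fell into 2 genotypes named in the labels, KPC (5 lines: A1081, A1620, A1625, A2031 and A2032) and KPCAf/f (5 lines: A1693, A1809, A1925, A2441 and A3992). The name KPC stands in this field for a genetic model of pancreatic cancer in mice, which both genotypes share by name, and the series title concerns Arid1a, which belongs to the SWI/SNF nucleosome remodellers. The labels do not spell out the alleles, the promoter of any Cre, the sex or age of the mice, or whether each line came from a separate mouse, so p-values measure the spread between these lines. Every line was grown in DMEM with 10% FBS with no treatment named and was sequenced as 1 stranded mRNA library. Values are the authors' DESeq2-normalized counts, in which 1 read is worth about 1 normalized count.

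As background, guidance cues steer growing axons and also act outside the nervous system on cell movement, adhesion and vessels. Slits bind Robo receptors, and netrins bind Dcc, neogenin and Unc5 receptors. Class 3 semaphorins are secreted and mostly use a neuropilin as the binding subunit with a plexin as the signalling subunit, the later classes mostly bind plexins directly, and ephrins on one cell bind Eph receptor kinases on its neighbour and signal in both directions. Alterations in genes of this pathway, those of Slit and Robo among them, have been reported in pancreatic cancer.

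The libraries held 15124888 to 20419830 reads. Arid1a, whose count over the whole gene does not check a deletion of some exons, had normalized counts of 820 to 3109 in KPC and 1253 to 1785 in KPCAf/f. Library A1620 stood apart, with a slope of log2 values on transcript length of -0.65 for each doubling, against slopes of -0.03 to 0.16 in the other 9 lines. The median of the longest transcript was 5360 bases over the 44 guidance genes and 3310 bases over 12780 tested genes. The 8 epithelial markers summed to 168731 to 366431 in KPC and to 5919 to 132981 in KPCAf/f, with the lowest sum in A1693. Keratins made up most of these sums, and the markers did not all go the same way. In A1809, Epcam was 6720, Cldn7 3170 and Esrp1 2689. The KPC ranges of these were 34.4 to 754, 12.4 to 304 and 6.62 to 1431. Krt8, Krt18 and Krt19 in A1809 were below every KPC line, and Cdh1 and Krt7 were within the KPC range. In A1693, Cdh1 was 10.8 and Pdx1, a pancreatic transcription factor, was 2.7, against 3143 to 22853 and 594 to 1679 in the other 9 lines. Krt8 and Krt18 were 2466 and 2808 in A1693. The 10 fibroblast markers summed to 62.9 to 173 in KPC and to 14717 to 88400 in KPCAf/f, with the highest sum in A1693. That rank came mainly from Col1a2, at 71336 in A1693. A1693 was also the highest line for Col3a1, Lum and Fap. Col1a1 was 3259 in A1693 against 6566 to 17935 in the other KPCAf/f lines. Pdgfra and Pdgfrb were highest in A1925, Postn in A1809, and Dcn and Thy1 in A3992. Of the 10 markers, 7 reached 10 in at least 3 lines, Lum was at 0 in every KPC line and the highest Fap value was 4.5. The endothelial markers summed to 68.2 to 737 and 86.0 to 725 with Erg at 0 throughout, the Schwann and neuronal markers to 471 to 2227 and 261 to 2497 with Sox10 at no more than 1.12, and the immune markers to 48.1 to 123 and 89.9 to 293. Ncam1, of the Schwann and neuronal list, overlapped, at 399 to 2000 in KPC and 57.3 to 1579 in KPCAf/f. Stmn2, of the same list, was 0 to 15.9 in KPC. In KPCAf/f it was 14.4 in A1693, 53.2 in A1809, 449 in A1925, 5.62 in A2441 and 395 in A3992. Reads of 4 Y-linked genes numbered 1148 to 3415 in each KPC line and 0 to 3 in each KPCAf/f line, so that genotype and sex chromosome content cannot be told apart. Xist was 1.96 to 6.63 in KPC and 5278 to 18451 in 4 KPCAf/f lines, but 3.6 in A1693. The part of any of these in the differences given next was not tested, except where a value without a line or with a length correction is printed.

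Slit2, Ntn1 and Sema7a rose in KPCAf/f, and each was higher in every KPCAf/f line than in any KPC line. Of the 43 members that entered the test, these 3 (6.98%) were called higher by limma at an adjusted p under 0.05, beside 1.36% of all 13089 tested genes. Ntn1 passed the filter of the test through the KPCAf/f lines, the group in which it is high, and limma-voom did not call it (adjusted p = 0.0845). The 3 called and the 3 non-overlapping members thus include a gene that entered through its high group. No member was called lower by limma, beside 0.39% of all tested genes, while 7 members had a lower level at an unadjusted p under 0.05. On the other tools, edgeR and limma-voom called 0 members lower and DESeq2 called 2, Sema4b and Sema4g. All 3 called genes encode ligands. None of the 20 receptors was called in either direction by limma, which is near the 1.36% higher and 0.39% lower of all tested genes. At an unadjusted p under 0.05 in limma, 7 of 23 ligands were higher and 5 lower, and 3 of 20 receptors were higher and 2 lower. At an unadjusted p under 0.05 the members counted 10 higher and 7 lower (23.3% and 16.3% of 43), beside 8.39% and 6.26% of all tested genes. The 2 genotypes did not overlap for 3 members, all higher in KPCAf/f, beside 2.84% of all tested genes for higher and 1.69% for lower. The shares of all genes called by the other tools, higher and lower, were 1.11% and 0.206% for edgeR, 4.06% and 1.64% for DESeq2 and 0.581% and 0.222% for limma-voom. The median log2 difference was 0.13 over the members and -0.01 over all genes, with 24 members above 0 and 19 below. After correction for transcript length the median was -0.06 over the members and -0.06 over all genes with a length. The median of the absolute log2 difference was 0.89 over the members and 0.36 over all genes. In these bulk libraries, fewer cells of a type and less RNA per cell cannot be told apart.

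**Figure D1:**
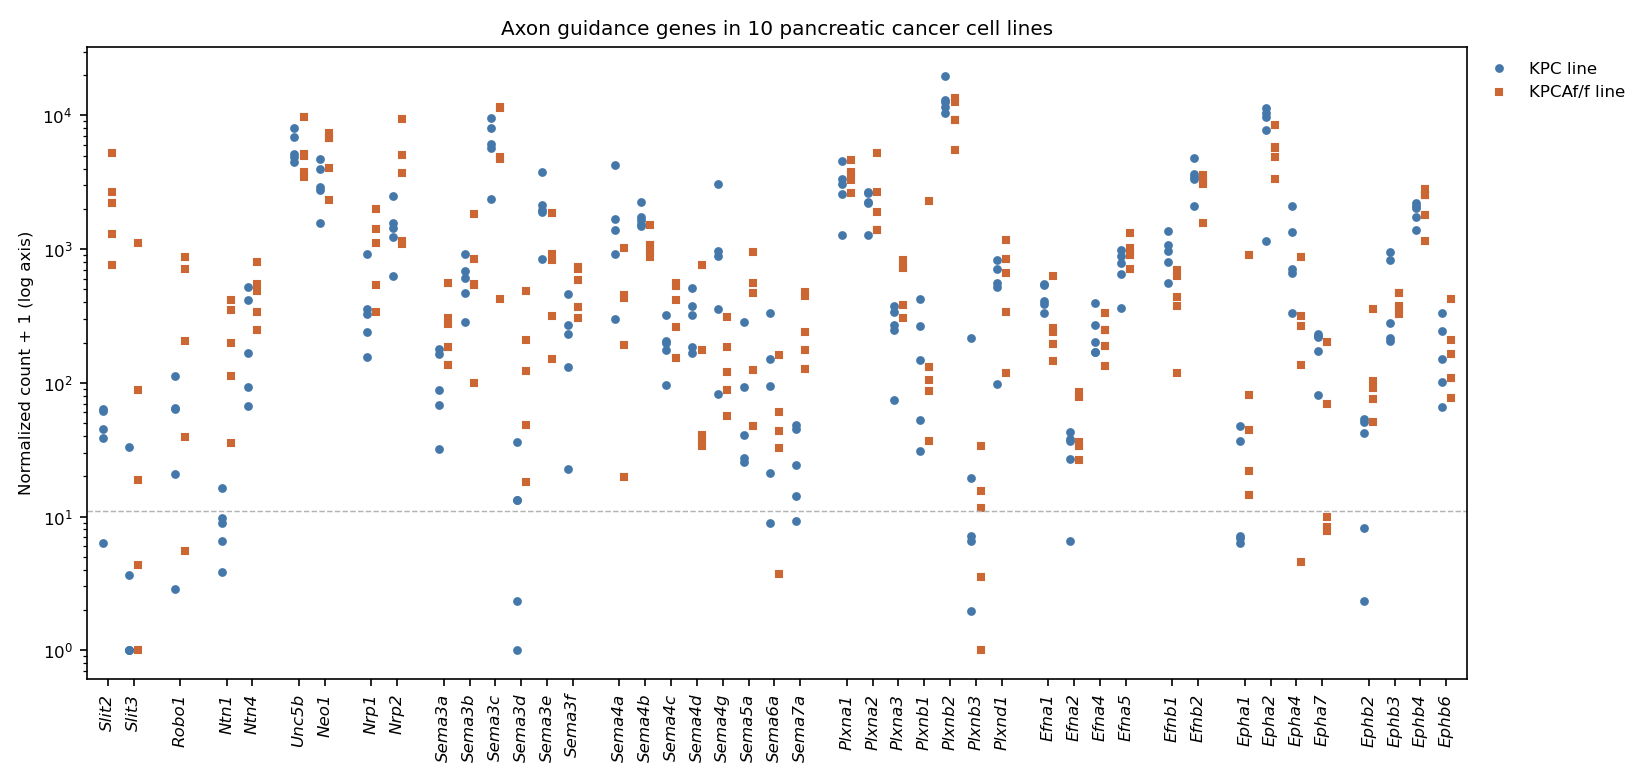
Normalized count plus 1 on a log axis, 1 point per line, KPC as circles and KPCAf/f as squares, for the 44 guidance genes by family; the dashed line is a normalized count of 10. Slit2, Ntn1 and Sema7a are the members whose 2 groups of points do not overlap.

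Slit2, a large secreted ligand of Robo receptors (ENSMUSG00000031558.15, chr5:47983138-48307733, plus strand, GRCm38), was the member with the largest difference. Its normalized counts were 37.9 in A1081, 5.30 in A1620, 62.6 in A1625, 60.3 in A2031 and 44.3 in A2032. In KPCAf/f they were 2670.1 in A1693, 2209 in A1809, 1295 in A1925, 5261 in A2441 and 759 in A3992. Every KPCAf/f line thus lay far above every KPC line, and the lowest KPCAf/f value was over 10 times the highest KPC value. The means were 42.1 ± 23.1 (SD, n = 5) and 2439 ± 1746 (SD, n = 5), a ratio of 57.9. The log2 difference was 5.88 with an SE of 0.69, and the limma adjusted p was 0.0013, or 0.00107 to 0.00528 with each line left out in turn. Without A1620, the KPC line with the lowest Slit2, the log2 difference was 5.27, and without A1620 and A1693 it was 5.17.

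Sema7a, a membrane-anchored semaphorin that binds integrin beta 1 and plexin C1 (chr9:57940112-57962865, plus strand, GRCm38), had normalized counts of 47.3 in A1081, 13.2 in A1620, 44.0 in A1625, 23.5 in A2031 and 8.25 in A2032. In KPCAf/f they were 174 in A1693, 476 in A1809, 449 in A1925, 237 in A2441 and 127 in A3992. The groups did not overlap, with means of 27.3 ± 17.7 (SD, n = 5) and 292 ± 160 (SD, n = 5), a ratio of 10.7. The log2 difference was 3.46 with an SE of 0.57, and the limma adjusted p was 0.00975, or 0.0113 to 0.0327 with each line left out.

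The promoters of these 2 genes are shown because they are the called members with a RefSeq window and because their CpG and GC-box content can be read from the letters. RefSeq (GRCm38.p6) gave a window of 300 bases around the start of 39 of the 44 members, not including Ntn1. The windows are chr5:47982905-47983204 for Slit2 and chr9:57939862-57940161 for Sema7a, both on the plus strand. Capitals mark matches to GGGCGG, the GC box, and TATAAA, the TATA box, each searched on both strands with no overlap between matches.
Slit2: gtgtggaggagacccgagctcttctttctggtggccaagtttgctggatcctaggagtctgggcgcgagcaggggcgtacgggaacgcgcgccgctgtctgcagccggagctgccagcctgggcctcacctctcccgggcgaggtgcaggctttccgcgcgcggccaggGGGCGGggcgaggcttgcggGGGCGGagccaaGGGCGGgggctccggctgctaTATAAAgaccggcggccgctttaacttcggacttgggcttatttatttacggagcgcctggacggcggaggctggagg
Sema7a: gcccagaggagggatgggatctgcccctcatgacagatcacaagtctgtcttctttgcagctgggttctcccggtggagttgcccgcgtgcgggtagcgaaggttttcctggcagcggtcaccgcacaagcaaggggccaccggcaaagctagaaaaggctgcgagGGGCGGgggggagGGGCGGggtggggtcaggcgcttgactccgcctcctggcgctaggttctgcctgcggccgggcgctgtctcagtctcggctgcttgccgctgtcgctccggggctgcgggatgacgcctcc

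The Slit2 window held 30 CpG dinucleotides at 68.0% GC, 3 GC boxes and 1 TATA box. The Sema7a window held 23 CpG at 67.3% GC and 2 GC boxes, with no TATA box. Both are richer in CpG than the median of the 32851 RefSeq windows, which held 7 CpG at 52.7% GC, but close to the member windows, whose median over 49 windows was 23 CpG at 65.3% GC. The GC box was present in 35.7% of all windows and in 39 of the 49 member windows (79.6%), and the TATA box in 13.6% and in 2 (4.08%). Neither window matched CAGGTG, an E-box, TGANTCA, the AP-1 site, or GGAATG, the TEAD site, which were present in 20.2%, 7.81% and 14.7% of all windows and in 7, 2 and 6 member windows. A match or its lack describes these letters alone.

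The other Slit was decided by a few lines. Slit3, another Robo ligand, had 32.2 in A1081, 2.65 in A1620 and 0 in the other 3 KPC lines, and 1116 in A1693, 0 in A1809, 17.7 in A1925, 3.37 in A2441 and 88.1 in A3992. The groups overlapped, and the KPCAf/f mean of 245 ± 488 (SD, n = 5) was 27.3 ± 41.3 without A1693, beside 6.97 ± 14.1 in KPC (0.662 ± 1.32 without A1081). Slit3 reached 10 in 4 lines, just inside the rule, and missed the filter of the main test. With a filter of 10 in at least 3 lines its log2 difference was 3.21 with an adjusted p of 0.398 in limma.

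Robo1, the receptor that reads Slits, did not follow Slit2 line by line. Its normalized counts were 1.89 in A1081, 19.9 in A1620, 62.6 in A1625, 111 in A2031 and 63.9 in A2032, and 875 in A1693, 38.5 in A1809, 203 in A1925, 4.5 in A2441 and 713 in A3992. A2441, the line with the highest Slit2, had the second lowest Robo1 of all lines. The means were 51.8 ± 42.5 and 367 ± 401 (SD, n = 5 each), and the log2 difference of 1.99 with an SE of 1.44 did not pass (limma adjusted p = 0.538). Without A1693 the KPCAf/f mean of Robo1 was 239.7 ± 327, and with each line left out in turn the log2 difference ran from 1.138 to 3.11. Robo2, another Slit receptor, lay outside the rule: it reached 10 only in A2441, at 28.1, and was 0 to 9.27 elsewhere. Per kilobase of the longest transcript, the KPCAf/f mean was 245 ± 175 for Slit2 and 48.5 ± 53.0 for Robo1, and their spreads overlapped.

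Ntn1, the secreted netrin-1 (chr11:68209364-68400823, minus strand, GRCm38), had normalized counts of 2.84 in A1081, 7.95 in A1620, 8.81 in A1625, 5.59 in A2031 and 15.5 in A2032. In KPCAf/f they were 111 in A1693, 417 in A1809, 352 in A1925, 197 in A2441 and 34.4 in A3992. The groups did not overlap, with means of 8.13 ± 4.71 and 222 ± 161 (SD, n = 5 each), a ratio of 27.3. The KPC mean rested on 38 reads over the 5 lines together. The log2 difference was 4.32 with an SE of 0.69, and the limma adjusted p was 0.0086, or 0.00208 to 0.0282 with each line left out. limma-voom ended the call (adjusted p = 0.0845), and Ntn1 passed the filter of the test through the 5 KPCAf/f lines, the group in which it is high, since 4 of 5 KPC lines were under 10. Ntn4, a laminin-binding netrin, had means of 251 ± 203 and 482 ± 211 and did not pass (log2 difference 1.26, SE 0.58, limma adjusted p = 0.348).

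The netrin receptors were abundant in both genotypes. Unc5b, the receptor for netrin-mediated repulsion, ranged from 4510 to 8110 in KPC and from 3461 to 9639 in KPCAf/f, with means of 5898 ± 1549 and 5403 ± 2484. Neo1 (neogenin), which also binds repulsive guidance molecules, ranged from 1555 to 4691 and from 2342 to 7380, with means of 3191 ± 1205 and 5451 ± 2175. Neither passed the test, at limma adjusted p of 0.774 and 0.388, and the ranges overlapped for both. Dcc, the other main netrin receptor, did not pass 2.65 in any line.

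**Figure D2:**
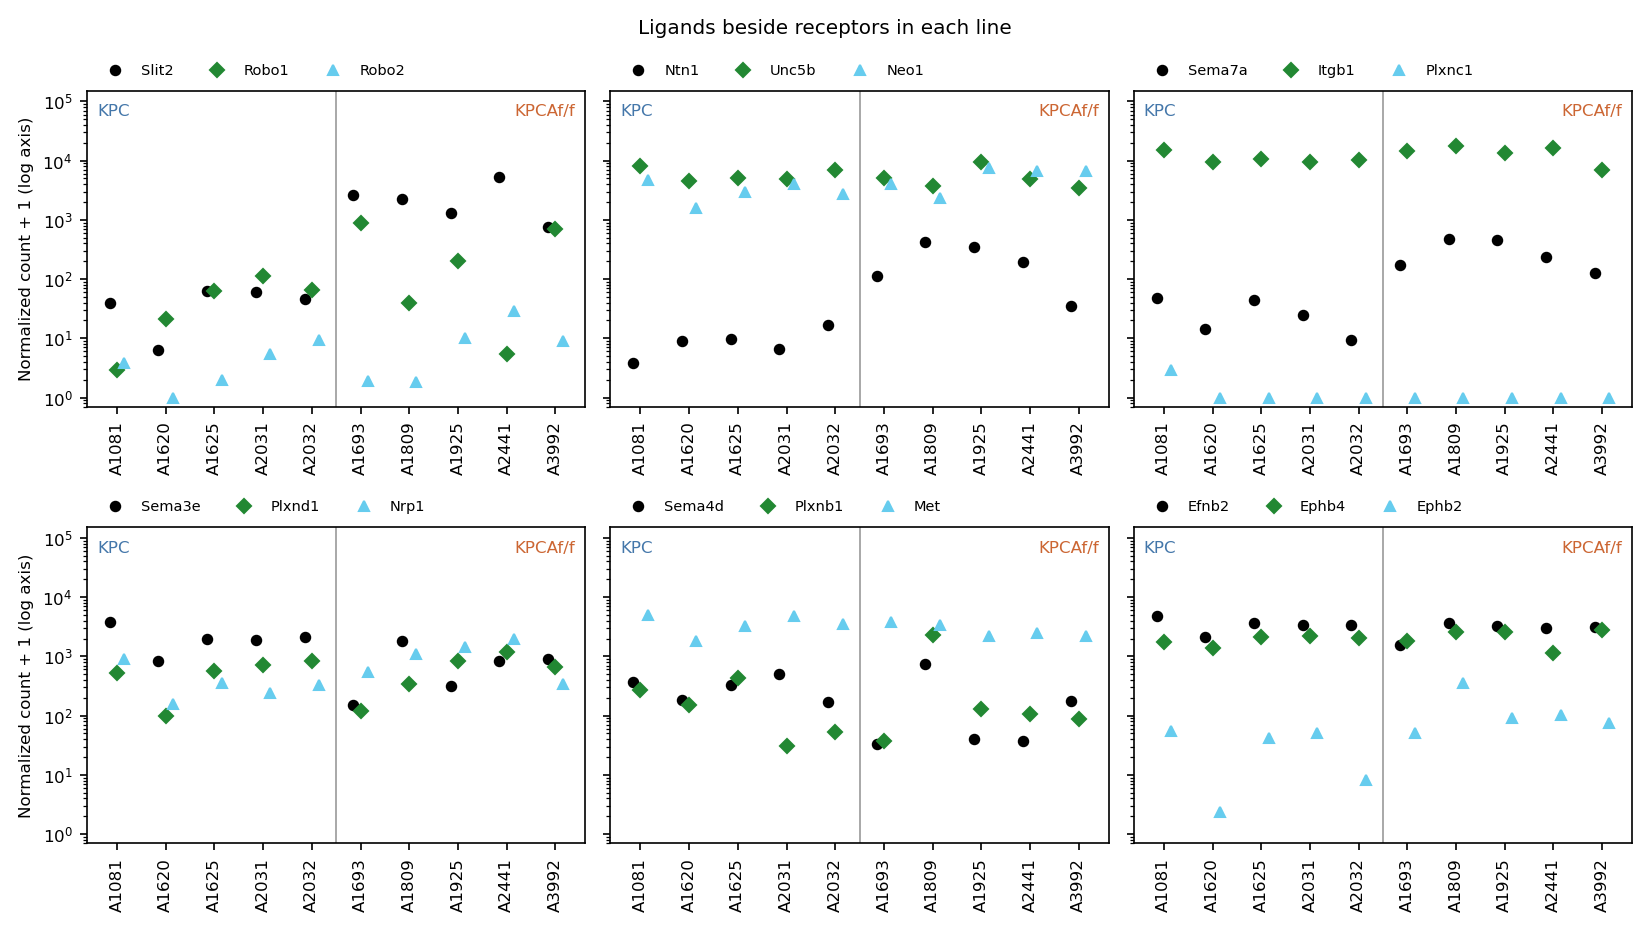
Normalized count plus 1 on a log axis for 6 ligands, each beside 2 receptor or co-receptor genes, in the 5 KPC and 5 KPCAf/f lines. Nrp1, drawn beside Sema3e, and Met, drawn beside Sema4d, are co-receptors and not the receptors of these ligands. Slit2, Ntn1 and Sema7a shift up to the right of the vertical line while Unc5b, Neo1 and Itgb1 stay within overlapping ranges; levels are not corrected for gene length and are to be read within a gene.

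Of the receptors of Sema7a, Plxnc1, its plexin, lay outside the rule, with 1.89 in A1081 and 0 in the other 9 lines, which is at or under the floor of 3 reads. Itgb1, the integrin beta 1 subunit, had means of 10985 ± 2364 and 13790 ± 4125 (SD, n = 5 each) and did not pass (log2 difference 0.28, limma adjusted p = 0.638).

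The neuropilins, co-receptors of class 3 semaphorins and of VEGF, had higher means in KPCAf/f with overlapping groups. Nrp1 had 918 in A1081, 155 in A1620, 354 in A1625, 240 in A2031 and 326 in A2032, and 537 in A1693, 1102 in A1809, 1422 in A1925, 1990 in A2441 and 339 in A3992. A1809, A1925 and A2441 were above all KPC lines, and the log2 difference of 1.43 with an SE of 0.56 did not pass over all genes (limma adjusted p = 0.267). Nrp2 ranged from 625 to 2490 and from 1098 to 9317, with its highest value in A1693, and did not pass (log2 difference 1.13, SE 0.60, limma adjusted p = 0.410).

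None of the 6 class 3 semaphorins was called by limma, beside 1.36% higher and 0.39% lower of all tested genes. At an unadjusted p under 0.05 in limma, 3 were higher and 1 lower, beside 8.39% and 6.26% of all tested genes. edgeR and limma-voom also called 0 of them, and DESeq2 called Sema3d higher, beside 4.06% of all genes called higher by DESeq2. Sema3d, a secreted repellent, had 12.3 in A1081, 1.32 in A1620, 0 in A1625, 12.3 in A2031 and 35.1 in A2032, and 17.1 in A1693, 484 in A1809, 207 in A1925, 123 in A2441 and 47.6 in A3992. All KPCAf/f lines but A1693 lay above every KPC line, and the log2 difference of 3.90 with an SE of 1.11 had an adjusted p of 0.126 in limma and 0.00612 in DESeq2. Its KPCAf/f mean was 176 ± 187 (SD, n = 5), or 98.7 ± 85.0 without A1809, beside 12.2 ± 14.0 in KPC, or 6.48 ± 6.74 without A2032.

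Sema3a, the classical growth cone collapsing factor, had means of 105 ± 63.3 and 290 ± 162 (log2 difference 1.54, SE 0.53, limma adjusted p = 0.211). Sema3f, a ligand of Nrp2, had means of 222 ± 165 and 538 ± 193 (log2 difference 1.73, SE 0.70, limma adjusted p = 0.289). Sema3e, which signals through Plxnd1 without a neuropilin, had 3742 in A1081, 840 in A1620, 1963 in A1625, 1883 in A2031 and 2146 in A2032, and 149 in A1693, 1848 in A1809, 316 in A1925, 833 in A2441 and 911 in A3992. A1693, A1925 and A2441 were below every KPC line, and the log2 difference of -1.71 with an SE of 0.63 did not pass (limma adjusted p = 0.239). Sema3c, a secreted semaphorin, was the class 3 member with the highest level per kilobase, at 1157 ± 496 in KPC and 1194 ± 870 in KPCAf/f, and A1693, at 423, stood below the other 9 lines, which had 2368 to 11565. Sema3b had means of 592 ± 235 and 769 ± 645, the latter 506 ± 305 without A3992, with a limma adjusted p of 0.984.

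Among the class 4 to 7 semaphorins, Sema7a was called higher by limma, beside 1.36% of all tested genes. Of the 8, 5 had a log2 difference below 0, beside 6643 of all 13089 tested genes. Of these 5, 3 had an unadjusted p under 0.05 in limma, beside 6.26% of all tested genes for lower. Sema4b, a transmembrane semaphorin, had 2235 in A1081, 1538 in A1620, 1653 in A1625, 1739 in A2031 and 1479 in A2032, and 943 in A1693, 871 in A1809, 1518 in A1925, 1068 in A2441 and 1076 in A3992. The KPCAf/f lines other than A1925 were below every KPC line, and A1925 was within the KPC range. The means were 1729 ± 300 and 1095 ± 252 (SD, n = 5 each), and the log2 difference was -0.67 with an SE of 0.20. The adjusted p was 0.138 in limma, 0.043 in DESeq2 and 0.0461 in limma after correction for transcript length.

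Sema4a, known for roles in immune cells, had means of 1702 ± 1500 and 423 ± 381 (limma adjusted p = 0.303), of which the KPC mean was 1072 ± 601 without A2032 and the KPCAf/f mean 272 ± 205 without A3992. Sema4g, a transmembrane semaphorin, had means of 1070 ± 1170 and 152 ± 101, or 574 ± 427 in KPC without A2032, and a log2 difference of -2.22 with an adjusted p of 0.255 in limma and 0.00507 in DESeq2. Sema4d, the ligand of plexin B1, had 373, 184, 322, 512 and 167 in the KPC lines in the order given at the outset, and 32.4, 755, 39.6, 36.0 and 174 in the KPCAf/f lines. A1809 was the highest of all lines, and the KPCAf/f mean of 208 ± 312 was 70.6 ± 69.3 without it. Sema4c, a ligand of plexin B2, and Sema5a, a semaphorin with thrombospondin repeats, had higher means in KPCAf/f, 382 ± 173 against 199 ± 82.0 and 428 ± 361 against 93.1 ± 109, at limma adjusted p of 0.370 and 0.295. The KPC mean of Sema5a was 45.7 ± 31.4 without A1625. Sema6a, a transmembrane ligand of A-type plexins, had means of 120 ± 130 and 59.3 ± 59.8 and a limma adjusted p of 0.755, with the highest value of each group in A2032 and A1809. Without these lines its means were 67.7 ± 66.01 in KPC and 34.2 ± 24.0 in KPCAf/f.

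The plexins, receptors with an intracellular GAP domain for small GTPases, showed no call by limma among 7 tested. Of all tested genes, limma called 1.36% higher and 0.39% lower. Among the 7, 1, Plxna3, was higher at an unadjusted p under 0.05 in limma, beside 8.39% of all tested genes. edgeR, DESeq2 and limma-voom likewise called 0 of them. Plxnb2, a receptor of class 4 semaphorins, had the highest level per kilobase of all members, at 2075 ± 564 in KPC and 1538 ± 486 in KPCAf/f. Epha2 followed at 2066 ± 1049 and 1444 ± 473, then Sema3c, then Unc5b at 1005 ± 264 and 921 ± 423, and in this order each member and the next overlapped within their SDs in both genotypes. Plxnb2 had a log2 difference of -0.46 with a limma adjusted p of 0.457.

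Plxna3, an X-linked receptor that pairs with neuropilins, had 269, 72.9, 338, 249 and 377 in KPC and 722, 304, 832, 732 and 384 in KPCAf/f, in the same order. In KPCAf/f, 4 lines were above every KPC line, and the log2 difference of 1.27 with an SE of 0.47 did not pass (limma adjusted p = 0.242). Plxna1 and Plxna2, the other A-type plexins, had means of 2961 ± 1185 against 3599 ± 738 and 2205 ± 562 against 2516 ± 1610, at limma adjusted p of 0.591 and 0.969. Plxnd1, the receptor of Sema3e, had means of 541 ± 277 and 624 ± 412 (limma adjusted p = 0.943), with its lowest values, 96.7 and 117, in A1620 and A1693. Plxnb1, the receptor of Sema4d, was carried by A1809: its KPCAf/f mean of 528 ± 983 was 88.7 ± 39.6 without that line, which had 2285, beside 184 ± 163 in KPC. A1809 also had the highest Sema4d. Plxnb3, another X-linked plexin, reached 10 in 5 lines and had 215 in A1081 and at most 32.7 in any other line. Its KPC mean of 49.2 ± 92.8 was 7.82 ± 7.52 without A1081, and its KPCAf/f mean of 12.1 ± 13.0 was 6.93 ± 6.82 without A1809.

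**Figure D3:**
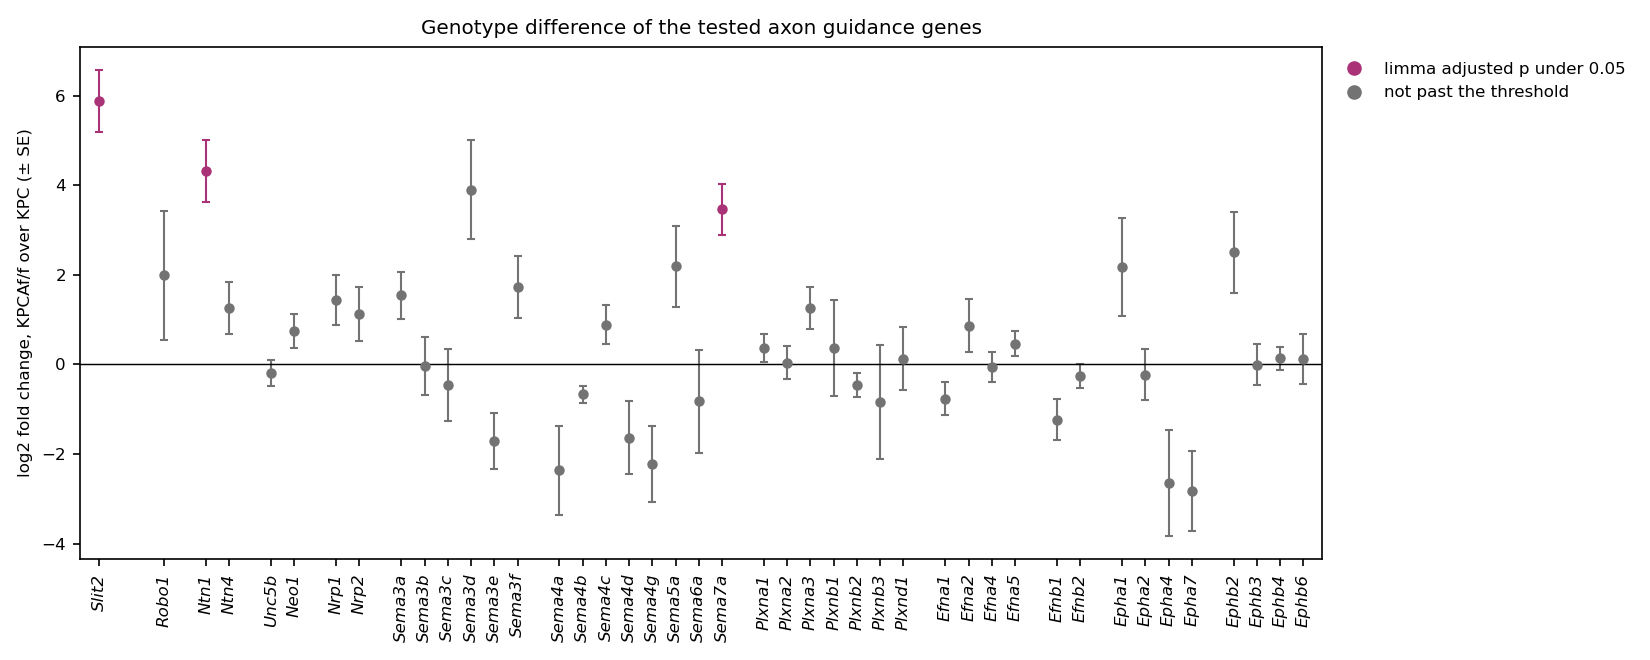
Log2 difference of KPCAf/f minus KPC from limma on log2(normalized count + 1) for the 43 tested members, by family, with bars of 1 SE. Slit2, Ntn1 and Sema7a are the 3 with an adjusted p under 0.05, and ligands as well as receptors lie on both sides of 0.

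The ephrins, membrane ligands of Eph receptors, showed no call by limma, edgeR, DESeq2 or limma-voom among 6 tested. Of all tested genes, limma called 1.36% higher and 0.39% lower. Among the 6, 1, Efnb1, was lower at an unadjusted p under 0.05 in limma, beside 6.26% of all tested genes. Efnb1, an X-linked transmembrane ephrin, had 1364 in A1081, 797 in A1620, 558 in A1625, 972 in A2031 and 1070 in A2032, and 118 in A1693, 373 in A1809, 439 in A1925, 632 in A2441 and 702 in A3992. A1693, A1809 and A1925 were below every KPC line, with means of 952 ± 301 and 453 ± 231 (log2 difference -1.24, SE 0.46, limma adjusted p = 0.240). Efnb2, the ligand of Ephb4 on vessels, had the highest level per kilobase among ephrins, at 724 ± 200 and 609 ± 165, and A1693, at 1560, was below the other KPCAf/f lines, which had 3043 to 3608. The GPI-anchored Efna1, Efna2, Efna4 and Efna5 had KPC means of 442 ± 95.5, 29.2 ± 14.4, 241 ± 95.1 and 734 ± 240. Their KPCAf/f means were 292 ± 193, 51.0 ± 27.7, 229 ± 73.9 and 977 ± 220, with limma adjusted p of 0.370 to 0.945.

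Of the Eph receptor kinases, 8 were tested and none was called by limma, edgeR, DESeq2 or limma-voom. Of all tested genes, limma called 1.36% higher and 0.39% lower. Among the 8, 1 was higher and 2 lower at an unadjusted p under 0.05 in limma, beside 8.39% and 6.26% of all tested genes. Epha7, a receptor of A-type ephrins, had 218 in A1081, 79.5 in A1620, 222 in A1625, 232 in A2031 and 173 in A2032, and 9 in A1693, 7.37 in A1809, 201 in A1925, 6.75 in A2441 and 67.8 in A3992. Of the KPCAf/f lines, 4 were below every KPC line, while A1925 was within the KPC range. The log2 difference was -2.82 with an SE of 0.89 (limma adjusted p = 0.165), and without A1925 it was -3.58 with a limma adjusted p of 0.0367, the one setting that called Epha7.

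Epha4, which binds ephrins of both types, had 1337, 714, 2104, 332 and 661 in KPC and 3.60, 136, 317, 265 and 867 in KPCAf/f. A1693, A1809, A1925 and A2441 were below every KPC line, A3992 was within the KPC range, and the log2 difference of -2.65 had an SE of 1.18 (limma adjusted p = 0.331). The KPCAf/f mean was 318 ± 330, or 180.4 ± 140.4 without A3992. Ephb2, a receptor of B-type ephrins, had means of 30.6 ± 24.5 and 134 ± 125, the latter 79.4 ± 22.9 without A1809, and a limma adjusted p of 0.234. Epha1 had means of 20.1 ± 19.9 and 213 ± 389, or 39.5 ± 29.9 in KPCAf/f without A1809, which had 907, and 13.3 ± 15.1 in KPC without A2031. Epha2, a receptor raised in many epithelial cancers, was at 7719 to 11408 in 4 KPC lines and at 1149 in A2032, and at 3354 to 8454 in KPCAf/f. Ephb3, Ephb4 and Ephb6 had means of 495 ± 362, 1896 ± 333 and 178 ± 109 in KPC and 398 ± 66.2, 2163 ± 682 and 196 ± 136 in KPCAf/f, with limma adjusted p of 0.818 to 0.998. Epha3 lay outside the rule, since it was at 0 in every KPC line and reached 10 in A1693, at 102, and A1925, at 11, alone.

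Lines of a genotype differed more for the guidance genes than for most genes, in a comparison not matched for level or transcript length. The part of level, of length and of the length slope in A1620 in this spread was not tested. The median SD of log2 values within a genotype was 0.94 over the members against 0.57 over all tested genes in KPC, and 0.95 against 0.44 in KPCAf/f. In KPC the SD ran from 0.23 for Sema4b to 2.54 for Plxnb3, and in KPCAf/f from 0.24 for Ephb3 to 3.07 for Robo1. The SD of 33 of 43 members in KPC and 39 of 43 in KPCAf/f exceeded the median over all tested genes. A1620 was the lowest KPC line for 20 of the 44 members (45.5%, against 36.8% of all tested genes), and A1693 was the lowest KPCAf/f line for 24 (54.5%, against 25.4%). A1809 was the highest KPCAf/f line for 15 members (34.1%, against 24.0% of all tested genes) and A1081 the highest KPC line for 17 (38.6%, against 19.1%). Without A1620 and A1693 together, limma called the same 3 members higher, and 0 lower.

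**Figure D4:**
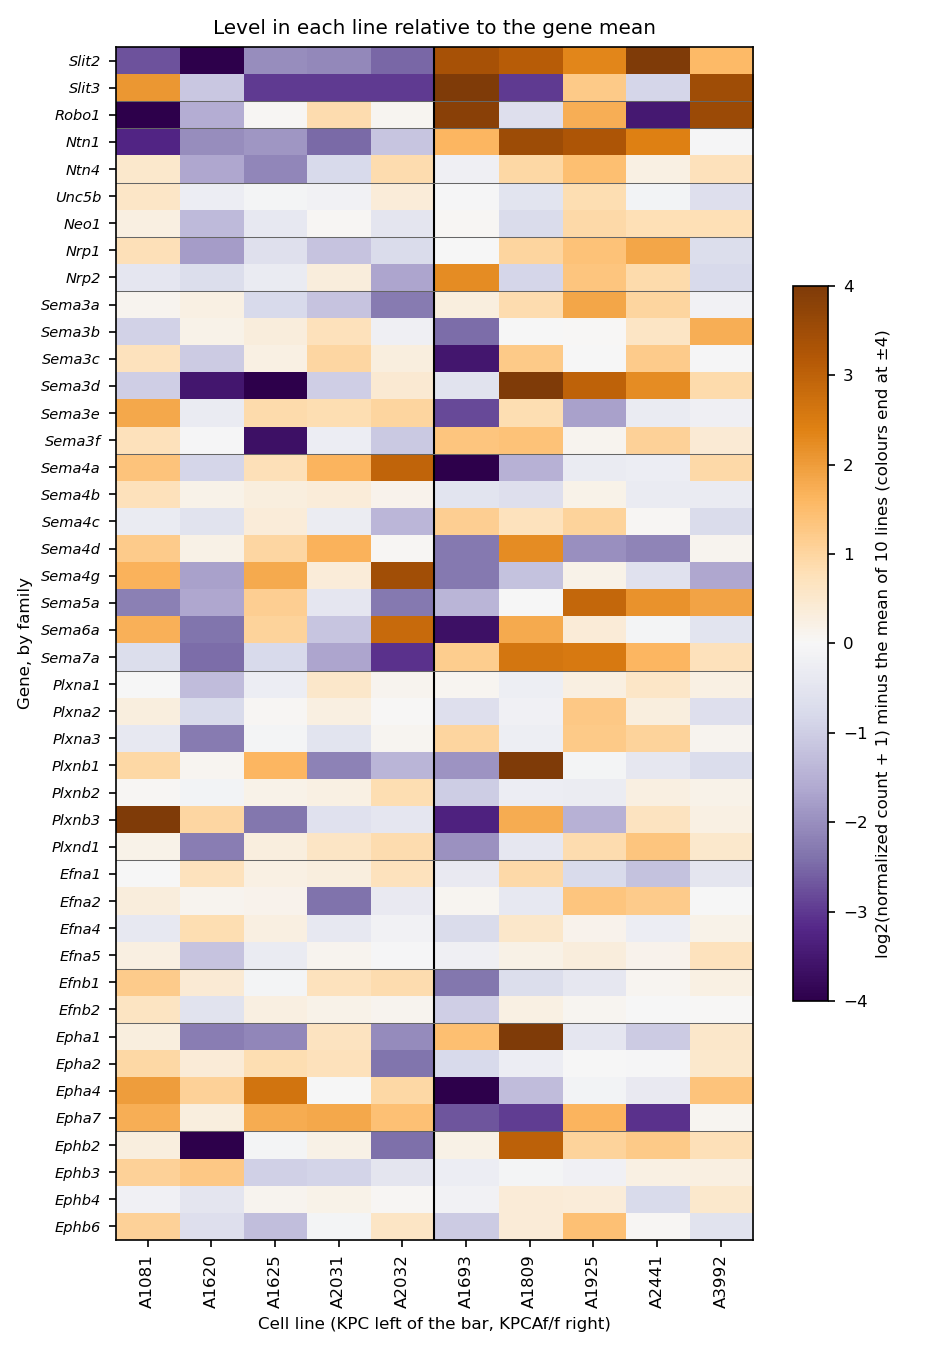
Log2(normalized count + 1) of each member in each line minus that gene's mean over the 10 lines, shown as colour, members by family in rows and lines in columns. Slit2, Ntn1 and Sema7a change colour between the 2 genotypes, and many other rows are set by 1 or 2 lines, such as A1620, A1693 and A1809.

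Other genes of the pathway were read in 3 lists of 116 genes in all: other members of the same families, alternative ligands and co-receptors, and intracellular signal transducers. Of these, 88 were tested and none was called by limma, edgeR or limma-voom, while DESeq2 called 10 higher and 0 lower, beside 4.06% and 1.64% of all genes. At an unadjusted p under 0.05, 15 were higher and 2 lower (17.0% and 2.3% of 88), beside 8.39% and 6.26% of all genes. For 5 the genotypes did not overlap, all higher in KPCAf/f (L1cam, Abl1, Micall1, Rasa1 and Trio), beside 2.84% of all genes for higher and 1.69% for lower. The median log2 difference over the 88 was 0.22, against -0.01 over all genes.

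Of the other family members, 9 of 25 were tested and 11 of the 24 in the table stayed under 10 in every line. The smallest p were those of Sema6b, a transmembrane semaphorin (log2 difference -1.82, SE 0.55, limma adjusted p = 0.151), Sema4f (-2.25, 0.94, 0.300), Slit1, another Slit (2.37, 1.09, 0.348) and Plxna4 (-2.38, 1.19, 0.386). Of the alternative ligands and co-receptors, 21 of 27 were tested, and L1cam, an adhesion molecule and neuropilin partner, had 16.1, 3.97, 10.8, 7.82 and 14.4 in KPC and 18.0, 304, 236, 40.5 and 31.7 in KPCAf/f. L1cam was higher in every KPCAf/f line than in any KPC line, but the lowest of these, 18.0 in A1693, was close to the highest KPC value, and the log2 difference of 2.75 had a limma adjusted p of 0.136. Lrig1 (1.05), Gpc1, a glypican that binds Slits (1.33), and Nrcam (2.87) had log2 differences with limma adjusted p of 0.146, 0.220 and 0.234.

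Of the signal transducers, 58 of 64 were tested. Micall1, a relative of the MICAL enzymes downstream of plexins, had 693, 446, 839, 789 and 939 in KPC and 1471, 1391, 1416, 1407 and 1139 in KPCAf/f. Its groups did not overlap, and the log2 difference of 0.92 with an SE of 0.22 had a limma adjusted p of 0.0623. Sh3bp1, a Rac GAP bound by plexins (log2 difference 1.22), Rasa1, a Ras GAP that acts under Eph receptors (1.43), and Trio, an exchange factor used in netrin signalling (1.33), had limma adjusted p of 0.0793, 0.137 and 0.255.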

How the data were processed

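Bulk RNA of 10 lines was read, 1 library each, with groups from the labels. The submitters' processing notes name STAR 2.5.2b, featureCounts from Subread 1.5.0p3, DESeq2 1.14.1 in R 3.3.2, Trimmomatic 0.36 and bcl2fastq 1.8.4, and the builds GRCm38.p5 and mm9 without a role. Since neither the annotation nor the strand setting is given in the sources used here, reads of overlapping or antisense genes cannot be told apart. The deposited signal is the authors' read count divided by a DESeq2 size factor. Dividing by the value of 1 read gave whole reads (within 0.001) for 100% of values, and edgeR on these reads called 145 genes higher and 27 lower. Each pair of libraries differed by more than sampling noise (chi-square over degrees of freedom of at least 60.6).

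Genotypes were compared in R 4.3.3 by limma-trend (limma 3.58.1), a two-sided test on log2(normalized count + 1) with Benjamini-Hochberg adjustment over 13089 genes with at least 10 in at least 5 lines. Fold changes on this scale understate those of low genes. Alternatives were pseudocounts of 0.5 and 5, 3 other filters, quantile and TMM scaling, edgeR 4.0.16, DESeq2 1.42.0 and limma-voom, array weights, a loess correction for transcript length (span 0.5), leaving out each line, and leaving out A1620 and A1693. Scripts were tested on simulated data. GENCODE M21 (GRCm38) supplied coordinates and lengths and matched 47240 symbols (95.3%); promoters are from RefSeq (GRCm38.p6). All 47 listed genes are named, and, of related genes, those called or otherwise the 4 of each list with the smallest p. The members and lists were chosen with earlier results of these data known. Genes that share reads with close family members, such as the ephrins, may be split by the counting.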

Additional observations from a re-analysis of the deposited data

Results flagged for a closer look

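Of 88 groups of 5 lines tested for a line far from the others, 9 held one; chance gives such a line in about 1 of 20 groups. A1620 was far below the other KPC lines for Slit2 (5.30 against 37.9 to 62.6), Plxna2 (1276 against 2201 to 2688), Plxna3 (72.9 against 249 to 377), Plxnd1 (96.7 against 516 to 827) and Epha7 (79.5 against 173 to 232), in normalized counts. A2031 was far below the other KPC lines for Efna2 (5.59 against 25.8 to 41.7), and A2032 for Epha2 (1149 against 7719 to 11408). A1693 was far below the other KPCAf/f lines for Sema3c (423 against 4697 to 11565) and Efnb2 (1560 against 3043 to 3608). The slope of values on transcript length in A1620, -0.65 per doubling, moves with the first 5, and its part in them was not tested.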

How the results depend on the processing

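Slit2, Ntn1 and Sema7a were called higher under every alternative except Ntn1 under limma-voom, and DESeq2 added Sema3d and array weights Sema3a, so that 2 to 4 members were called higher. Members called lower numbered 0 with all lines and 2 under DESeq2 (Sema4b, Sema4g), 1 under array weights (Sema3e), 1 under length correction (Sema4b) and 0 to 1 with a line left out (Epha7 without A1925). Related genes called higher numbered 1 under quantile scaling, 10 under DESeq2, 3 under array weights and 0 to 1 with a line left out (Micall1 without A1620, Sh3bp1 without A1625, Dpysl3 without A1809), and called lower 1 under array weights (Sema6b). All genes called higher numbered 178, and 269 with the filter of 10 in 3 lines, 109 with a mean of at least 100, 521 under DESeq2, 76 under limma-voom and 403 under array weights. All genes called lower numbered 51, and 22 with a mean of at least 100, 27 under edgeR, 210 under DESeq2, 29 under limma-voom, 183 under array weights and 24 to 91 with a line left out (24 without A1625, 91 without A1809). The causes were not tested.

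Of 1253 gene values, 46 in 13 genes turned direction, none of them called on either side. Length correction gave Plxna1 -0.0719, Plxna2 -0.46, Plxnb1 -0.0574, Plxnd1 -0.21, Efna4 0.13, Ephb4 -0.0417 and Ephb6 -0.0044, and moved the members' median to -0.06. Array weights gave Unc5b 0.0527, Efna4 0.11 and Ephb3 0.48. edgeR and DESeq2 gave Sema3b 0.38 and 0.37 and Sema3c 0.055 and 0.0449, quantile scaling Ephb6 -0.0161, and TMM 0.00011 and limma-voom 0.0191 for Ephb3. Without A1620 and A1693 the values were Sema3b 0.61, Sema3c 0.0373, Plxnb3 0.0224, Efna4 0.31, Epha2 0.0138 and Ephb3 0.38. With a line left out the ranges were Sema3b -0.48 to 0.57, Sema3c -0.83 to 0.36, Plxna2 -0.27 to 0.21, Plxnb1 -0.59 to 0.90, Plxnb3 -1.52 to 0.17, Plxnd1 -0.41 to 0.64, Efna4 -0.21 to 0.14, Ephb3 -0.24 to 0.31 and Ephb6 -0.22 to 0.40. No scaling moved the median over all genes by 0.1. No paired analysis was possible because the labels name no pairing between KPC and KPCAf/f lines. Depth limits Slit3, Plxnb3 and the 3 genes outside the rule, which rest on few reads in most lines. It also limits the KPC values of Ntn1 and Sema3d, which had 38 and 59 reads over the 5 KPC lines together, beside 36 for Slit3.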

Other observations

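Grb10, an imprinted adaptor protein bound by Eph receptors and the related gene with the largest log2 difference, was chosen for mention after its values were seen. It had 1.89, 10.6, 28.4, 3.35 and 2.06 in the KPC lines A1081, A1620, A1625, A2031 and A2032, and 3141 in A1693, 9.82 in A1809, 2500 in A1925, 1.12 in A2441 and 3175 in A3992. A1693, A1925 and A3992 were thus far above all other lines, and the other 2 KPCAf/f lines were no higher than the highest KPC line, with a log2 difference of 5.08 (SE 2.05, limma adjusted p = 0.288). The same lines, A1693, A1925 and A3992, were those with the highest Robo1 (875, 203 and 713), while Slit2 was high in all 5. Unc5c, a netrin receptor outside the main list and also mentioned after its values were seen, had 872 in A1693 and 440 in A1925 and 45.0 to 172 in the other 8 lines.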
